A study of Mus musculus with 16 samples.

Results

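H3K4me3 peaks of testes from B6-TgWT mice, which carry a wild-type PRDM9 transgene, were compared with those of B6 mice without it. Members were taken by line and antibody, so 4 H3K4me3 ChIP libraries (2 for each line) and 2 inputs were behind the comparison, of 16 samples in the series. The labels give the B6-TgWT line as C57BL/6J-Tg(RP23-159N6*)43Bdm and the B6 line as C57BL/6JOlaHsd, both as whole testis at 13 days post-partum with the Abcam antibody ab8580. The B6 list is named with the number 12 while its labels say 13 days, and which of these holds was not settled. The controls are of another C57BL/6 substrain than the transgenic mice, and the transgene was studied as 1 numbered line, so strain and transgene cannot be told apart here. In the published study the transgene is a bacterial artificial chromosome whose PRDM9 has the zinc fingers of another mouse subspecies, and B6-TgWT mice keep their own Prdm9 gene. Each line had 1 peak list made for both libraries. On chromosomes 1 to 19 the B6-TgWT list held 46631 peaks and the B6 list 50013, which is 96644 peaks in all.

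PRDM9 is a methyltransferase made by germ cells as they enter meiosis. Its zinc fingers read a DNA sequence, and the enzyme then trimethylates lysine 4 of histone H3 on the nucleosomes either side, where meiotic recombination is later started. The zinc finger array differs between mouse subspecies, so each version directs the mark to its own set of sites. H3K4me3 also marks active promoters in every cell of the testis, and the 2 kinds of site were not separated here.

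A B6-TgWT peak is called matched if it shared at least 1 bp with a B6 peak, and gained if it did not. A B6 peak that shared no base with a B6-TgWT peak is called unmatched. Gained and unmatched describe the lists only: a site without a peak can still carry the mark below the authors' calling threshold. As each line had 1 list, the spread between replicates could not be measured and no test was made. The 95% Wilson intervals given with the shares, and the exact binomial intervals given with some medians, cover counting error over peaks, which are not replicates. The lists hold no read counts, so the depth behind them is unknown. Listed significance differed: the median −log10 p of matched peaks was 122 in the B6 list and 56.2 in the B6-TgWT list. The lowest listed values were 11 and 12, and 566 B6 peaks lay below 12. An alternative with a common lowest value is given further below. The part of the first difference in the shares and widths was not tested. Strength is given as the rank of a peak's fold enrichment within its own list, in percent from weakest to strongest, and ranks from lists of different length show no change by themselves.

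Of the B6-TgWT peaks, 9002 were gained, a share of 19.3% (interval 18.9 to 19.7). Of the B6 peaks, 13540 were unmatched, a share of 27.1% (interval 26.7 to 27.5). The smaller class of the B6-TgWT list was of ordinary width for its list, and the larger class of the B6 list was narrow. Gained peaks had a median width of 1189 bp (interval 1174 to 1202, quartiles 853 and 1575), against 1220 bp for matched B6-TgWT peaks. Unmatched B6 peaks had a median width of 647 bp (interval 641 to 653, quartiles 477 and 866), against 1364 bp for matched B6 peaks. Both classes were weaker than the matched peaks of their list, and the B6 class was the weaker of the 2 within its own list. The median rank was 33.5 for gained peaks and 56.1 for matched B6-TgWT peaks. In the B6 list it was 16.4 for unmatched and 63.5 for matched peaks.

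The stronger 50% of the B6-TgWT list held 2400 gained peaks of 23324 (10.3%, interval 9.91 to 10.7). The same part of the B6 list held 111 unmatched peaks of 25026 (0.444%, interval 0.368 to 0.534). So, set against the whole of the other list, peaks in the stronger 50% that lacked a match were far more frequent in the B6-TgWT list than in the B6 list. The order turned when both lists were reduced to their stronger 50%: 14.01% of B6-TgWT and 21.64% of B6 peaks then lacked a match. Under that setting a peak can lack a match although a weaker peak of the other list overlaps it. Neither list had such peaks in its strongest 10%: the counts were 0 of 4664 for B6-TgWT, with an upper bound of 0.0823%, and 0 of 4996 for B6, with an upper bound of 0.0768%.

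The classes differed in width far more in the B6 list than in the B6-TgWT list. The share of B6 peaks that were unmatched fell at nearly every step of width, from 93.8% (interval 90.7 to 95.9) of those up to 250 bp to 57.0% at 501 to 750 bp and 8.47% (interval 7.74 to 9.26) at 1251 to 1500 bp. Above 3000 bp, 1 B6 peak was unmatched (0.0408%). The share of B6-TgWT peaks that were gained was 17.7% (interval 16.8 to 18.7) at 501 to 750 bp, rose to 25.1% (interval 24.0 to 26.2) at 1251 to 1500 bp and fell to 2.58% (interval 1.90 to 3.50) above 3000 bp. The gained share was thus highest at the middle widths, where the unmatched share was already low.

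**Figure D1:**
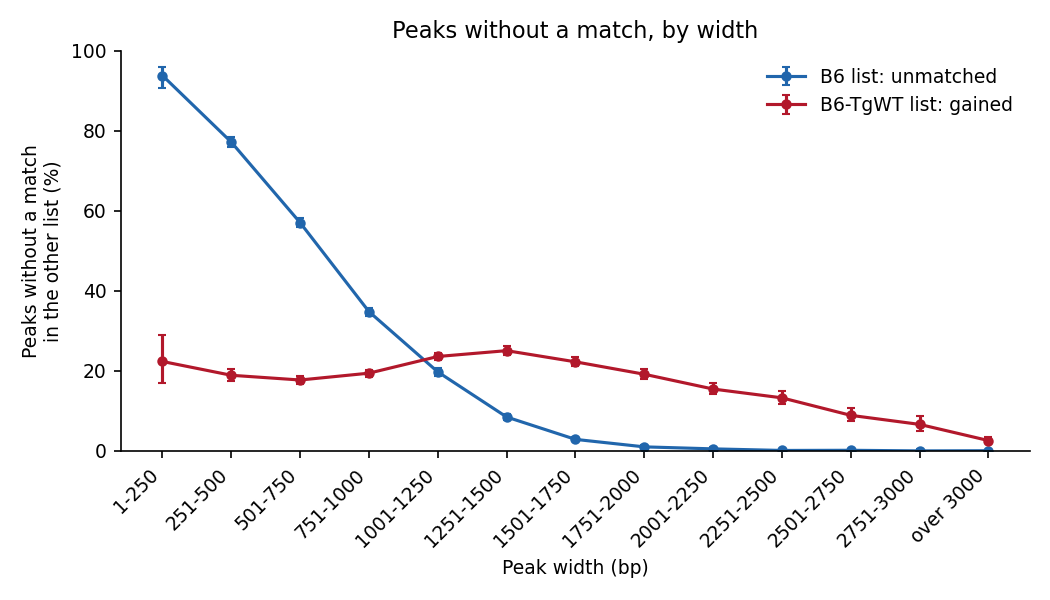
Share of peaks without a match in the other list (y axis, percent) by peak width in bins of 250 bp (x axis, bp), with 95% Wilson intervals over peaks. The B6 curve falls from 93.8% to below 1%, while the B6-TgWT curve has its highest point, 25.1%, at 1251 to 1500 bp.

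At equal width, gained peaks were weaker than matched ones in each bin above 250 bp. Up to 250 bp, the 40 gained peaks had a median rank of 13.8, against 12.8 for matched peaks. Of the gained peaks, 14.6% (interval 13.9 to 15.3) lay above the median rank of matched B6-TgWT peaks in the same 250 bp width bin, where equal strength would give 50%. Of the unmatched B6 peaks, 3.91% (interval 3.60 to 4.25) lay above the corresponding B6 median. The distance between the classes in the B6-TgWT list was widest at the middle widths. At 251 to 500 bp the median ranks in the B6-TgWT list were 14.7 for gained and 18.2 for matched peaks, and at 1751 to 2000 bp they were 54.5 and 83.1. Above 3000 bp they were 66.9 and 85.8, closer again. In the B6 list the ranks at 251 to 500 bp were already 13.0 and 33.7, so narrow unmatched peaks stood further below their matched neighbours in width than narrow gained peaks did.

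The reverse comparison, width at equal rank, was chosen after the values above were seen. Here the 2 classes went opposite ways. Of the gained peaks, 74.3% (interval 73.4 to 75.2) were wider than the median matched B6-TgWT peak of the same rank decile. Of the unmatched B6 peaks, 26.8% (interval 26.1 to 27.5) were wider than the median matched B6 peak of the same decile. In decile 6 of the B6-TgWT list, with fold enrichments of 6.81 to 8.43, gained peaks had a median of 1564 bp and matched peaks of 1119 bp. In decile 7, with folds of 8.44 to 11.46, the medians were 1831 and 1290 bp. In decile 5 of the B6 list, with folds of 6.25 to 7.71, unmatched peaks had a median of 826 bp and matched peaks of 1011 bp. Gained peaks were therefore broad for their enrichment and unmatched B6 peaks narrow for theirs, in every decile of each list with more than 10 such peaks.

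**Figure D2:**
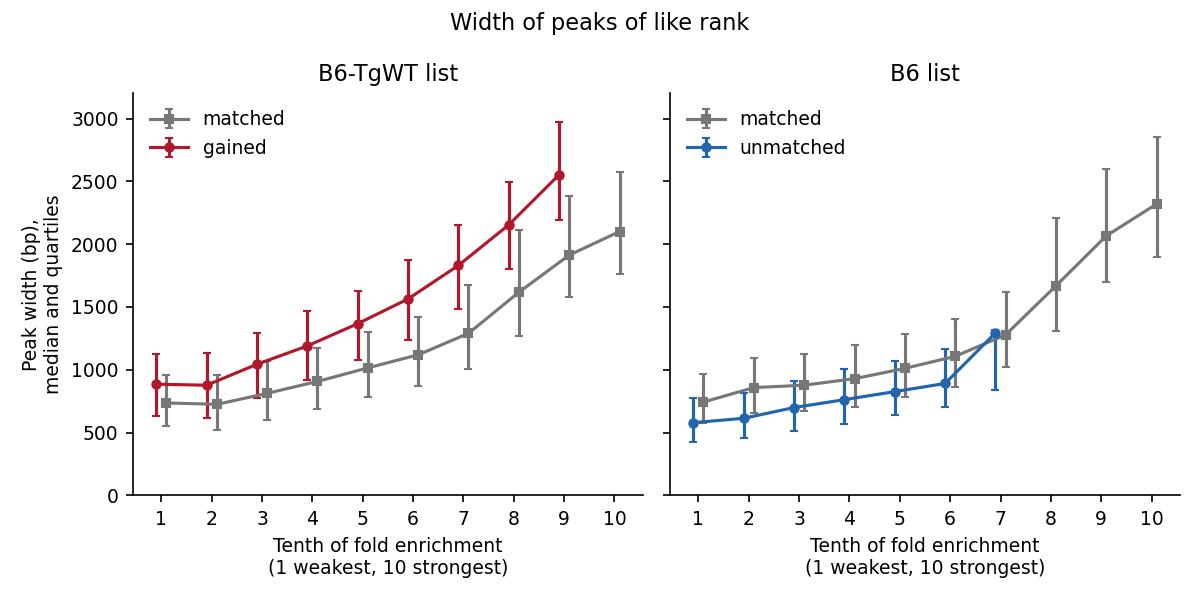
Peak width in bp (y axis, median with quartiles as bars) by decile of fold enrichment within each list (x axis, 1 weakest), for deciles with at least 5 peaks of a class. Gained peaks (left, red) lie above matched ones (grey) in deciles 1 to 9, and unmatched B6 peaks (right, blue) lie below matched ones in deciles 1 to 6. The last blue point rests on 5 peaks.

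The share gained stayed level over much of the strength range. It was 29.7% in the weakest decile of the B6-TgWT list, 27.6% in decile 5, 25.6% in decile 6 and 21.0% in decile 7, then 4.66% (interval 4.09 to 5.30) in decile 8. The share unmatched in the B6 list fell from 83.9% in the weakest decile to 12.5% in decile 5 and 2.12% (interval 1.75 to 2.55) in decile 6. The share was thus below 5% above a fold of 11.47 in the B6-TgWT list and above a fold of 7.72 in the B6 list.

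Summits were less often central in gained and in unmatched peaks. The summit lay in the central 20% of the peak in 38.0% (interval 37.0 to 39.1) of gained and 47.7% (interval 47.2 to 48.2) of matched B6-TgWT peaks. In the B6 list the shares were 41.0% (interval 40.2 to 41.8) for unmatched and 49.99% (interval 49.5 to 50.5) for matched peaks. The difference was also present at equal width. Among B6-TgWT peaks of 1501 to 1750 bp, 37.1% of gained and 53.5% of matched peaks had a central summit. Among B6 peaks of 1251 to 1500 bp, the shares were 28.7% for unmatched and 49.5% for matched peaks. In each bin of B6-TgWT widths from 501 to 2250 bp the intervals of the classes did not overlap, while up to 500 bp and above 3000 bp they did.

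A site shared by both lists had nearly the same summit in each. One-to-one pairs, in which each peak overlapped only the other, numbered 35011. Their summits lay a median of 34 bp apart (interval 33 to 34, quartiles 12 and 81), and 95% lay within 306 bp. No side was favoured: the B6-TgWT summit was to the left in 48.9%, to the right in 49.0% and on the same base in 2.03%, and the signed median was 0 bp. Shifts above 200 bp occurred in 8.96% (interval 8.67 to 9.26) and shifts above 500 bp in 777 pairs, or 2.22%. Stronger sites were placed more alike, with a median shift of 60.5 bp in decile 2 of the B6 ranks and 20 bp in decile 10.

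The largest shift was 3553 bp, on chromosome 4 at 54956732 to 54962962 (mm9, as all positions here). That peak was 6231 bp wide in the B6-TgWT list and 6113 bp in the B6 list, so the region was outlined alike and another point within it was called as its summit. The next largest shifts, 2764 bp on chromosome 9 at 20446010 to 20450122 and 2611 bp on chromosome 14 at 109309933 to 109313861, were also in wide peaks, of 4113 and 3929 bp in the B6-TgWT list.

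Matched peaks were narrower in the B6-TgWT list. Of the pairs of unequal width, 78.0% (interval 77.6 to 78.5) were narrower there, and the median log2 width ratio of B6-TgWT over B6 was -0.11 (quartiles -0.25 and -0.01). The B6-TgWT peak lay wholly inside the B6 peak in 55.7% of pairs and the B6 peak inside the B6-TgWT peak in 7.95%. This held across strength: the share of pairs wider in B6-TgWT was 33.1% in the weakest decile of B6 ranks and 14.9% in the strongest. Fold enrichment was higher in the B6-TgWT list in 15.2% of pairs, but folds of separately called lists are not comparable by themselves, and depth and background were not known for either. Across pairs, which are not independent replicates, Spearman's rho was 0.891 for fold enrichment and 0.928 for width.

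**Figure D3:**
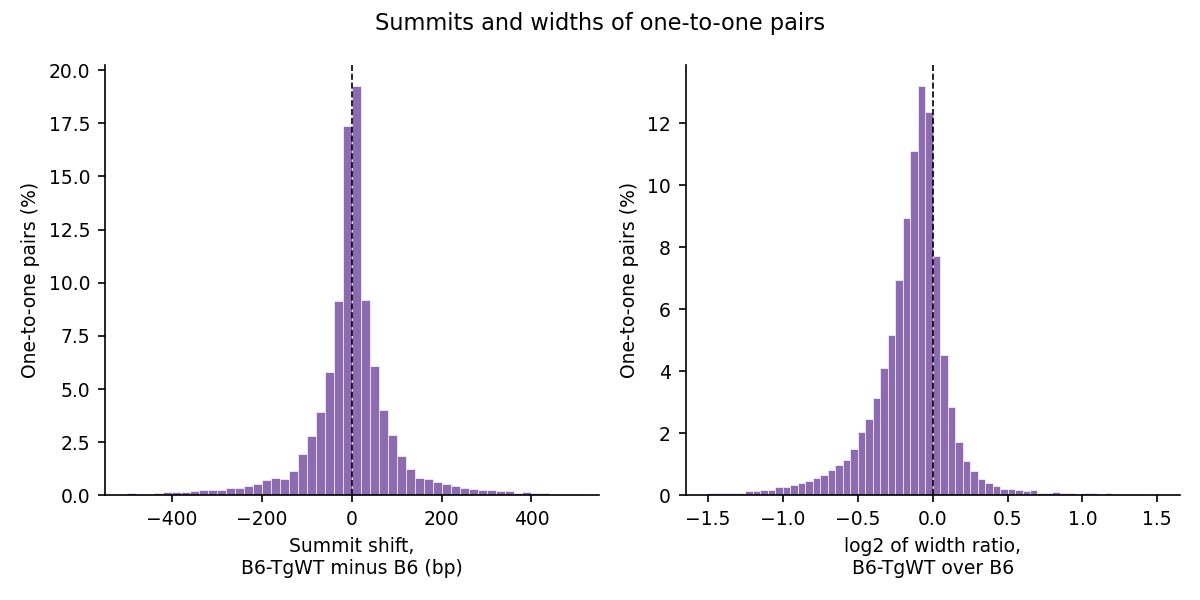
One-to-one pairs (y axis, percent of 35011) by signed summit shift in bins of 20 bp (left, bp) and by log2 width ratio in bins of 0.05 (right), both B6-TgWT against B6; a shift of 0 is counted in the bar to the right of the dashed line. Shifts are symmetric about 0, and width ratios lie mostly below 0. The panels leave out 2.22% and 0.4998% of pairs beyond their ends.

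Some shared sites were divided in 1 list. In the B6 list, 1237 peaks overlapped 2 or more B6-TgWT peaks, against 130 B6-TgWT peaks over 2 or more B6 peaks. The B6 peaks that were divided had a median width of 2416 bp and a median rank of 75.9, and the gaps between their B6-TgWT pieces had a median of 81 bp (quartiles 63 and 117). These peaks were wide and strong, and the pieces lay almost side by side.

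A few shared sites stood far apart in rank. The largest rise was on chromosome 4 at 148419554 to 148422394, where the peak had a fold of 14.06 and rank 75.2 in B6-TgWT and a fold of 3.05 and rank 1.71 in B6. It was 2841 bp wide in B6-TgWT and 686 bp in B6. Such a site counts as matched, since any shared base was enough. The next rises were on chromosome 12 at 113780784 to 113782252 (rank 6.23 in B6, 75.6 in B6-TgWT) and chromosome 10 at 120318728 to 120320507 (3.53 and 69.7). Those on chromosome 11 at 62891181 to 62894161 (2.96 and 68.3) and chromosome 15 at 95840622 to 95842445 (15.6 and 80.01) followed. All 5 were wider in the B6-TgWT list.

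The largest fall was on chromosome 11 at 83617731 to 83618503, with a fold of 12.14 and rank 66.1 in B6 and a fold of 2.94 and rank 0.354 in B6-TgWT. The other falls among the 5 largest lay on chromosomes 6, 13, 12 and 9, from ranks of 66.0 to 67.5 in B6 to ranks of 1.75 to 3.15 in B6-TgWT. All 5 were narrower in the B6-TgWT list. In the full lists, rises of at least 30 rank points occurred in 213 pairs, which had median widths of 850 bp in B6 and 1363 bp in B6-TgWT. Falls of at least 30 points occurred in 2953 pairs, with medians of 1003 and 859 bp. These counts depend on the other peaks of each list, and the median difference over all pairs, B6-TgWT minus B6, was -5.44 points (interval -5.58 to -5.27). With ranks taken among the 35011 pairs alone, an alternative added after the data were seen, the median difference was -0.344 points, and 651 pairs rose and 711 fell by at least 30 points. Ranks of the same pairs have equal means in both lists by construction. The near balance of rises and falls on that scale is thus largely fixed in advance and is no result about the lines. At 30 points the widths still differed in opposite ways, with medians of 1035 bp in B6 and 1272 bp in B6-TgWT for the rises. For the falls they were 1099 and 951 bp. At 10 points this was not so: medians were 1243 and 1204 bp for 6975 rises and 1227 and 1080 bp for 6690 falls. Over all pairs, Spearman's rho of the log2 width ratio with this rank difference was 0.11.

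Gained peaks lay further from other peaks than matched ones did. Their nearest B6-TgWT peak was a median of 13.1 kb away, edge to edge, against 8.65 kb for matched peaks. To the nearest matched peak the distance was 21.1 kb, against 10.3 kb from one matched peak to another. Within 5 kb of a matched peak lay 17.7% (interval 16.9 to 18.5) of gained and 33.5% (interval 33.0 to 34.0) of matched peaks. Much of this contrast lay within 1 kb, where the shares were 4.04% and 15.4%. The side-by-side pieces of divided B6 peaks all count as matched, which raises the matched shares. How much of the contrast they make up was not tested. Gained peaks were also rarely next to a site called in B6: 4.999% had a B6 peak within 1 kb and 0.900% an unmatched B6 peak within 1 kb. Of the unmatched B6 peaks, 12.4% (interval 11.8 to 13.0) had a B6-TgWT peak of any class within 1 kb, and 0.576% a gained one. Peaks that touch a peak of the other list are matched by the rule, and shared peaks were mostly wider in the B6 list. How far this makes up the difference between the lists was not tested. The 3 most isolated gained peaks lay on chromosome 4 at 38097139 to 38098343 (1115 kb from the next B6-TgWT peak), chromosome 17 at 19581995 to 19582972 (933 kb) and chromosome 2 at 47304688 to 47306260 (866 kb). The nearest B6 peak was 41.0, 933 and 306 kb away, in the same order. On chromosomes 4 and 2 it was thus much closer than the next B6-TgWT peak. These isolated gained peaks were weak, with ranks of 21.4 to 32.0.

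The exception to this spacing was a set of close gained pairs, noticed and described after the distances above were seen. Within 1 kb of another gained peak lay 869 gained peaks (9.65%, interval 9.06 to 10.3), more than the 364 (4.04%) within 1 kb of a matched peak. When the nearest peak was within 0.2 kb, it was itself gained for 650 of 765 gained peaks (85.0%, interval 82.3 to 87.3). This share was 64.4% (interval 58.2 to 70.1) at 0.2 to 0.5 kb, 28.0% (interval 22.1 to 34.7) at 0.5 to 1 kb and 20.8% (interval 18.3 to 23.4) at 2 to 5 kb. Matched peaks had a gained nearest peak in 2.89% of cases within 0.2 kb and in 14.1% at 2 to 5 kb. So a gained peak with a neighbour within 0.2 kb mostly had a gained one: of the adjacent pairs at that gap that held a gained peak, 330 were both gained and 116 mixed. At 0.2 to 0.5 kb the counts were close, with 84 pairs both gained and 95 mixed. In the B6 list the classes stood closer: 36.4% of unmatched and 30.3% of matched peaks with a neighbour within 0.2 kb had an unmatched one. The overlap rule bears on this contrast between lists, since all pieces under 1 wide peak of the other list count as matched. This befell 1237 B6 peaks over 2 or more B6-TgWT peaks, against 130 the other way. Its part in the contrast was not tested.

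**Figure D4:**
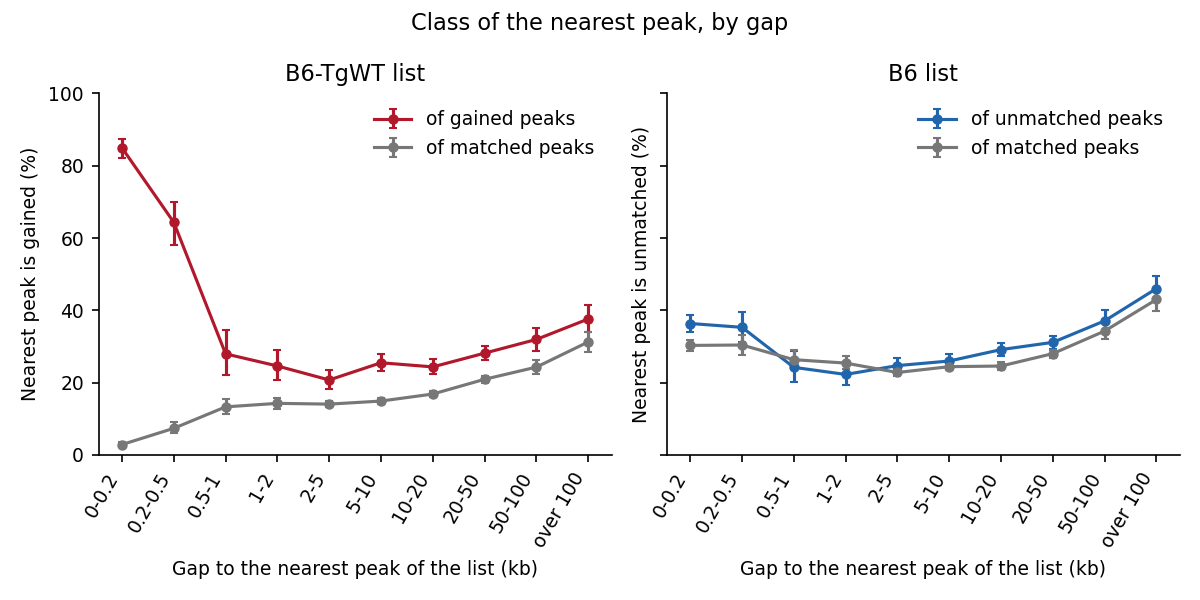
Share of peaks whose nearest peak in the same list has no match in the other list (y axis, percent, with 95% Wilson intervals) by the edge-to-edge gap to it (x axis, kb). Gained peaks with a neighbour within 0.2 kb have a gained one in 85.0% of cases (left, red), and the curves of the B6 list (right) lie close together at all gaps.

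Adjacent peaks that were both gained and at most 0.2 kb apart numbered 330 pairs. Their summits were a median of 684 bp apart (quartiles 539 and 851), and each pair spanned a median of 1701 bp. Gained peaks within 1 kb of another gained peak had a median width of 745 bp, against 1230 bp for the other gained peaks, and the median ranks were 35.7 and 33.2. Single members of such pairs were therefore narrow, and the whole pair was wider than a typical gained peak. The close pair with the highest lower rank was on chromosome 12 at 81720748 to 81722933, with folds of 11.33 and 10.79 on the sides of a 166 bp gap. The next was on chromosome 16 at 37996180 to 37998360, with folds of 10.37 and 11.07 and a gap of 54 bp. Also among the 5 highest was a pair on chromosome 8 at 111044060 to 111046411, with summits 478 bp apart and folds of 9.94 and 10.79. The 9002 gained peaks are therefore not all separate regions. The rule on matching bears on the pattern too: when peaks were matched by summits within 500 bp instead, the nearest peak within 1 kb was gained for 42.57% of gained peaks, against 71.6% (interval 69.0 to 74.1) by overlap. Under that rule, pieces of a divided B6 peak can count as gained.

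Gained peaks were found on all 19 chromosomes at broadly similar shares. The share gained was lowest on chromosome 10, at 15.3% (interval 13.9 to 16.7), and highest on chromosome 6, at 22.6% (interval 20.9 to 24.3). The share unmatched went from 21.7% (interval 20.3 to 23.1) on chromosome 11 to 31.0% (interval 28.9 to 33.1) on chromosome 16. Chromosome 10 combined the lowest gained share with an unmatched share of 30.4% (interval 28.8 to 32.0), above that of the whole list. Chromosomes 1, 6, 12, 14, 16 and 18 had shares above the whole list in both directions. On chromosomes 1, 6 and 16 both intervals also lay above the shares of the whole lists, at 22.5%, 22.6% and 22.0% gained and 30.05%, 29.9% and 31.0% unmatched.

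**Figure D5:**
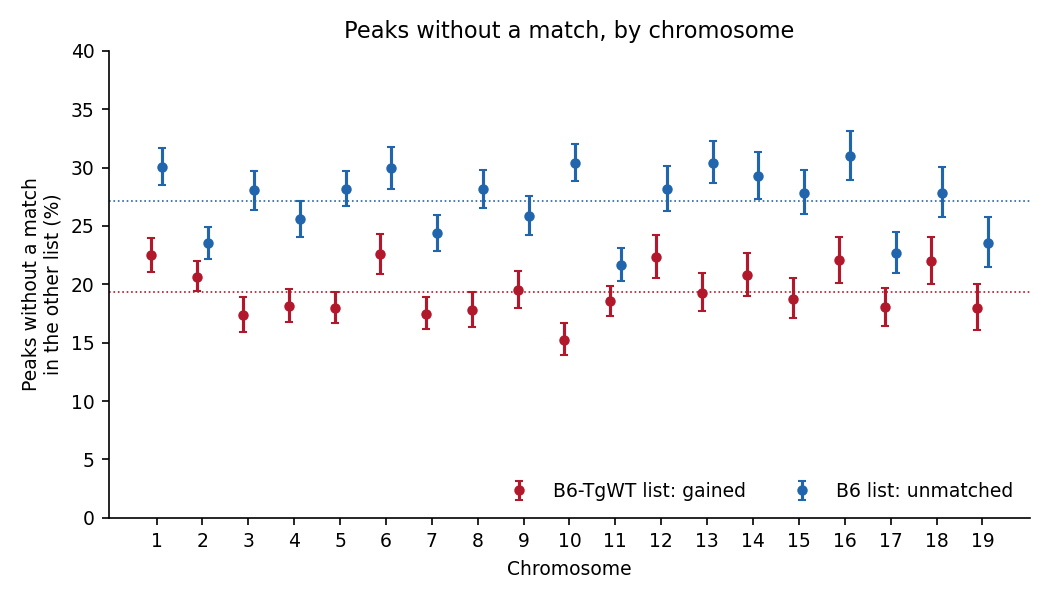
Share of peaks without a match in the other list (y axis, percent, with 95% Wilson intervals) on each autosome (x axis), with dotted lines at the shares of the whole lists, 19.3% and 27.1%. On chromosome 10 the gained share is lowest, at 15.3%, while the unmatched share is 30.4%.

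Along the chromosomes, gained peaks were placed much like matched ones. The last 10 Mb, measured from the last peak of each chromosome in either list, held 10.4% (interval 9.741 to 10.9996) of gained and 10.9% (interval 10.6 to 11.2) of matched B6-TgWT peaks. The first 10 Mb, from the first peak, held 6.61% (interval 6.11 to 7.14) of gained and 5.57% (interval 5.35 to 5.81) of matched peaks. Mouse chromosomes have the centromere at this end, and the excess there was about 1 percentage point. With 20 Mb the shares were 12.4% and 10.7% at the start and 19.4% and 21.4% at the distal end. Unmatched B6 peaks leaned the same way, with 12.2% (interval 11.7 to 12.8) in the first 20 Mb against 10.7% of matched B6 peaks.

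Gained peaks were more numerous where shared peaks were dense, but they made up a smaller share of the peaks there. Over 2422 windows of 1 Mb, the counts of gained and matched B6-TgWT peaks had a Spearman's rho of 0.591, and those of unmatched and matched B6 peaks 0.703, given as descriptions of windows that share the same chromosomes and lists. The mean number of gained peaks per window was 1.68 in windows with 1 to 4 matched B6-TgWT peaks, 4.34 in those with 10 to 19 and 5.62 in those with 40 to 105. The mean number of unmatched B6 peaks in the same windows was 2.36, 6.19 and 10.96. As a share of the B6-TgWT peaks in these windows, gained peaks fell from 41.7% to 23.4% and 9.93%. Unmatched peaks fell from 50.4% to 30.9% and 18.3% of the B6 peaks. The windows were grouped by matched peaks, which also enter these shares, so part of the fall follows from the grouping. No gained peak lay in 258 windows, and 197 windows had more gained than matched peaks.

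The window with the most gained peaks was chromosome 5 at 36 to 37 Mb, with 19 gained and 12 matched B6-TgWT peaks, and 5 unmatched and 12 matched B6 peaks. On chromosome 18 at 39 to 40 Mb there were 16 gained and 9 matched peaks. The other 3 richest windows had fewer gained than matched peaks: 17 against 31 on chromosome 17 at 48 to 49 Mb, 16 against 21 on chromosome 4 at 153 to 154 Mb and 15 against 22 on chromosome 2 at 93 to 94 Mb. The median window held 3 gained peaks.

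Every chromosome had strongly enriched gained peaks. The strongest on each of the 19 had folds of 12.47 to 19.45 (median 16.31), ranks of 72.3 to 84.0 and a median width of 2754 bp, and its nearest B6 peak was 5.30 to 49.4 kb away. On chromosome 1 it lay at 93111449 to 93114205 with a fold of 15.91, on chromosome 5 at 114954219 to 114956488 with 16.31 and on chromosome 6 at 38161316 to 38162463 with 16.68. On chromosome 9 it lay at 98234171 to 98236924 with a fold of 16.13, on chromosome 10 at 63745974 to 63749253 with 16.94 and on chromosome 19 at 6375583 to 6378660 with 14.78. Those on chromosomes 14 and 16 had another B6-TgWT peak within 0.2 kb, while that on chromosome 8 was 47.8 kb from the next. The lowest of the 19 maxima was on chromosome 3 at 89368316 to 89371075, with a fold of 12.47. The maxima on chromosomes 6 and 7 were narrow, at 1148 and 1167 bp, where 2754 bp was the median.

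The widest gained peaks were not the strongest. The first, 6303 bp on chromosome 18 at 9488617 to 9494919, had a fold of 11.06, and the second, 4130 bp on the same chromosome at 9502831 to 9506960, had 10.95. The third was on chromosome 8 at 117520473 to 117524461 (3989 bp, fold 10.29), 110 kb from any B6 peak. Those on chromosome 4 at 124591748 to 124595692 (3945 bp) and chromosome 1 at 64745922 to 64749815 (3894 bp) had a B6 peak 1.60 and 3.76 kb away. The first and second belonged to a stretch of 24.6 kb, from 9485185 to 9509771, in which 5 B6-TgWT peaks were gained and the B6 list had none. The stretch was singled out after its values were seen.

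Strong B6 peaks without a B6-TgWT counterpart were few and partly together. The strongest was on chromosome 10 at 122239029 to 122240499, with a fold of 13.14 and rank 68.2, and its nearest B6-TgWT peak was 82.6 kb away. Of the next 4, those with folds of 12.03 and 10.24 lay on the same chromosome at 121965229 to 121965876 and 122293409 to 122294727. These 3 fell in a stretch of 338 kb, from 121956548 to 122294727, where 10 of 13 B6 peaks were unmatched. All 3 B6-TgWT peaks there were matched, but each had a lower rank than its B6 counterpart. From B6 to B6-TgWT the ranks went from 50.7 to 12.2, from 89.9976 to 70.7 and from 69.2 to 60.9. Among one-to-one pairs in the same deciles of B6 ranks, the median differences were -13.9, -1.198 and -8.31 points, in the same order. The stretch was also chosen after the values were seen. The remaining ones of the 5 strongest were on chromosome 5 at 137312088 to 137312924 (fold 10.96) and 117003971 to 117005264 (fold 9.94). As the lines are of different C57BL/6 substrains, whether the chromosome 10 stretch differs by substrain or with the transgene cannot be told apart.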

How the data were processed

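H3K4me3 ChIP-seq libraries of whole testis were grouped by the line and antibody in the labels. Per the submitters' processing notes the build was mm9 and the tools were MACS2, BWA, Bowtie2 and CASAVA. The sources used here do not give their roles, their versions or the way replicates were combined. Each deposited list has 10 columns without a header, read in the order of MACS peak files. The fold enrichment of a peak is the authors' ratio to background, and the deposited −log10 p and −log10 q are the authors’ values too. The deposited score is 10 times the −log10 p, truncated. The deposited summit position is an offset from the peak start. Coordinates are counted from 1.

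Peaks on chromosomes 1 to 19 were matched by a shared base, and ranks of fold enrichment were taken within each list. Widths were binned by 250 bp up to 3000 bp. Intervals are 95% Wilson intervals for shares and exact binomial ones for medians. The members, lists and rules were chosen with earlier results of these data known. Regions named were the strongest gained peak of each chromosome, the 5 widest and 3 most isolated gained peaks, the 5 richest windows of 1 Mb, the 5 strongest unmatched peaks, the 5 largest rank rises and falls and the 3 largest summit shifts. Close pairs and the stretches of chromosomes 18 and 10 were added after the values were seen. Alternatives were other matching rules, the stronger 50% of lists, equal list lengths, −log10 q as the rank, other bins and distances, chromosome X and a common lowest −log10 p of 12. The matching was tested on 4000 simulated sites, and 100% of classes and pairs were recovered. Those sites were widely spaced with small shifts, so this checks the code only and not matching between crowded sites. The work was done in Python 3.11.15 with pandas 2.3.3, numpy 2.4.6, matplotlib 3.10.9 and scipy 1.17.1. An mm9 genome or annotation was not used here, so peaks were not assigned to genes and no sequence was read.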

Additional observations from a re-analysis of the deposited data

How the results depend on the processing

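No paired analysis was possible because 1 list covers both libraries of a line, and for the same reason no replicate could be left out. Of 112 alternatives over 13 results, 55 stayed within counting error, 56 moved and 1 reversed. Adding chromosome X moved none of the 13. Values follow in the order gained share, unmatched share, median width of gained peaks, then of unmatched ones, with those within counting error left out. With summits within 500 bp they were 23.22%, 28.39% and 674 bp (unmatched width). With peaks extended by 500 bp they were 18.81%, 24.57% and 664 bp (unmatched width). With both lists reduced to their strongest 50% they were 14.01%, 21.64%, 1592 bp and 1102 bp. With only the list that is counted so reduced they were 10.29%, 0.4435%, 1708 bp and 893 bp. With equal list length they were 20.49%, 23.01%, 1161 bp and 665 bp. With a common lowest −log10 p, added after the data were seen, the unmatched share was 26.29% and the unmatched width 654 bp.

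The share of gained peaks above the matched rank at equal width was 18.03% with summits, 4.04% and 3.792% with both lists or only the counted list reduced, and 12.76% with ranks by −log10 q. For unmatched peaks it was 5.478%, 4.857%, 5.405% and 2.696%, and 6.462% with extended peaks. The share of gained peaks wider at equal rank was 71.6%, 75.97%, 83.62% and 76.35% under those 4 settings and 72.03% with equal length. For unmatched peaks it was 32.72%, 34.42%, 27.93% and 35.24%, with 35.68% for extended peaks and 26.0% for equal length. All of these stayed on their side of 50%.

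The median summit shift was 32 bp with summits, a rule that by itself allows no shift above 500 bp. It was 26 and 27 bp with both lists or only the counted list reduced. The share of pairs wider in B6-TgWT was 21.28%, 20.44% and 21.34%. The share of gained peaks within 5 kb of a matched peak was 25.66%, 12.06% and 11.08%, and 15.76% with extended peaks. Within 10 kb it was 30.66%. The distal share was 11.14% with both lists reduced and 19.35% for the last 20 Mb. Larger distances hold more peaks by construction. The share of close gained peaks with a gained neighbour reversed to 42.57% with summits, and was 84.47% with extended peaks and 54.4% and 64.96% with both lists or only the counted list reduced. The cause of the moves was not tested. Read depth is unknown for both lists, and its part in which weak peaks lack a match was not tested.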

Other observations

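Chromosome X, left out of the comparison above, had fewer gained peaks. Of 1017 B6-TgWT peaks there, 124 were gained (12.2%, interval 10.3 to 14.3). The lowest autosome had 15.3% (interval 13.9 to 16.7), and these intervals overlap. The gained peaks of X had a median width of 1275 bp and a highest fold enrichment of 10.2, where every autosome reached at least 12.47. Every autosome had more gained peaks from which to draw a maximum, with the lowest count, 260, on chromosome 19. Of 1157 B6 peaks on X, 328 were unmatched (28.3%, interval 25.8 to 31.0), within the range of the autosomes. The unmatched peaks of X had a median width of 629.5 bp, against 1574 bp for matched B6 peaks on X.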
